A study of Mus musculus with 5 samples.

Results

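Intermediate filaments were followed through 10 genes, chosen by symbol and all found in the deposited table of 55401 gene IDs. They were the cytoplasmic filament genes Vim, Nes, Des, Synm, Krt8 and Krt18, the lamin genes Lmna, Lmnb1 and Lmnb2, and Plec, which encodes the linker plectin. The cells were mouse bone marrow mesenchymal stem cells (BMSCs), labelled wild type, which are adherent marrow stromal cells with the capacity to become fat, cartilage and bone cells. Continuous negative pressure of -80, -120, -160 or -200 mmHg was applied for 48 h, the control stood at 0 mmHg, and all were cultured on plates for 72 h per the labels' protocols. Each of the 5 conditions had 1 RNA-seq library, so no difference has a replicate check and no p-value is given. Strain, sex, age and the number of donor animals are not given in the sources used here.

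Intermediate filaments are rope-like polymers that give cells and nuclei mechanical strength. Vimentin is the main filament of mesenchymal cells, desmin that of muscle, and keratins 8 and 18 pair in simple epithelia, while nestin and synemin join filaments made of other subunits. Lamins line the inner nuclear membrane: lamins A and C, which are more abundant in stiff tissues, come from Lmna by splicing, and the B-type lamins come from Lmnb1 and Lmnb2. Plectin ties filaments to actin, to adhesions and to the nuclear surface.

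Values are FPKM (fragments per kilobase of exon, scaled to library size), which compare genes per length. They gave back whole reads, and the library totals were 18398911 reads at 0 mmHg and 16600622 to 18056998 reads at the 4 pressures. Intervals of FPKM values are exact Poisson intervals at 95% and those of ratios exact Clopper-Pearson intervals. Neither covers more than counting error, and since the labels mention no molecular identifiers the reads are not independent molecules. Of 13 stromal markers 11 were measured, and 7 passed the size rule given below at none of the pressures, against 78.1% of all genes. Only 1, Ly6a (SCA-1), was lower at each pressure (622 to 828 FPKM under pressure, 1740 FPKM in the control), against 4.46% of all genes. Itgb1 (integrin beta 1) stood at 267 to 296 FPKM under pressure and 179 FPKM in the control, and Col1a2 (a collagen I chain) at 463 to 574 FPKM under pressure and 454 FPKM in the control. Pdgfra stood at 63.7 to 71.5 FPKM under pressure and 44.3 FPKM in the control. Lepr, a marker of marrow stroma, stood at 0.205 to 0.393 FPKM under pressure and 0.0308 FPKM in the control. Col1a1 (434.8 to 564.5 FPKM under pressure, 929.6 FPKM in the control) and Cxcl12 (129 to 140 and 201 FPKM) stood below the control throughout. So did Vcam1 (8.35 to 9.58 and 17.8 FPKM), Pdgfrb (47.3 to 54.3 and 64.9 FPKM) and Cd44 (14.5 to 18.3 and 18.5 FPKM). Thy1, Eng and Nt5e stood above the control. By the size rule Thy1 was higher at 3 pressures, Col1a1 lower at 2 and Vcam1 at 1. At a single pressure 8.85% to 10.7% of all genes were higher and 6.03% to 6.89% lower. The median log2 difference of the measured stromal markers lay between -0.328 and -0.016. The pressure libraries held 0 reads of the Y-linked genes Ddx3y, Eif2s3y, Kdm5d and Uty, against 2493 reads in the control. They held no more than 2 reads of the imprinted RNA H19, against 1745 reads in the control. In every comparison with the control below, pressure and a separate origin of the control cells cannot be told apart.

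Vim and Lmna were lower than the control at all 4 pressures, Lmnb1 was lower at 3, and Synm was higher at 3 from a low level. A gene was called higher or lower when log2(FPKM + 1) differed by at least 1 (a factor of 2) between a pressure library and the control and its mean over the 5 libraries was at least 1 FPKM. That left 7 of the 10 members: Des, Krt8 and Krt18 were below the mean of 1 FPKM. At -80, -120, -160 and -200 mmHg in turn 3, 3, 2 and 3 members were lower, where 6.89%, 6.45%, 6.03% and 6.38% of all 12113 genes measured were lower. In the same order 1, 1, 1 and 0 members were higher, where 10.7%, 8.85%, 9.59% and 9.10% of all genes were higher. Those lower at all 4, Vim and Lmna, compare with 4.46% of all genes. No member was higher at all 4, where 6.49% of all genes were. That is 540 genes lower and 786 higher at all 4, a balance that depended on the scaling. Counts were 530 lower and 792 higher with upper-quartile scaling, 563 and 581 with quantile normalization, 718 and 545 after the trimmed mean of log ratios was set to 0, and 609 and 575 with the trend on exon length removed. Vim and Lmna were lower at all 4 pressures under each of them. Nes, Lmnb2 and Plec passed the size rule at no pressure, as did 78.1% of all genes. The median log2 difference of the 7 members lay between -0.57 and -0.28, while the median of all measured genes lay between 0.14 and 0.16.

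**Figure D1:**
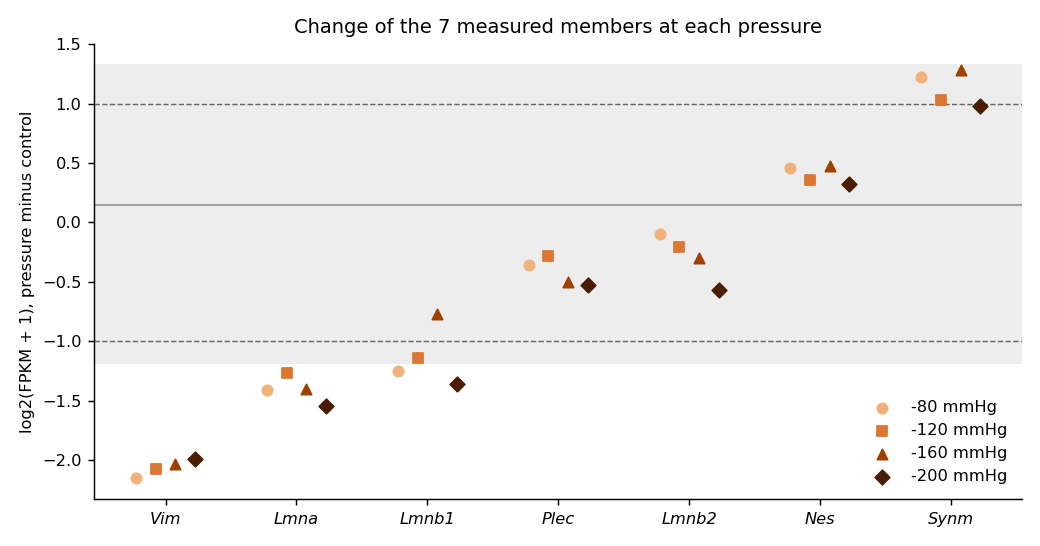
Difference in log2(FPKM + 1), pressure library minus control, for the 7 members measured (symbols stand for the 4 pressures). The grey band spans the 5th to 95th percentile of all genes (widest of the 4 comparisons), the grey line the median of all genes and the dashed lines the size rule. Vim lies between -2.15 and -1.99, Lmna between -1.55 and -1.27, and Synm between 0.98 and 1.28.

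Promoter sequence is shown for the pair of members that was lower at all 4 pressures and for Synm, which moved in the other direction. The letters are the 250 bases before the RefSeq start, GRCm38.p6, from the table of RefSeq promoters, in which 8 of the 10 members were found. Lmna has 2 starts in that table, both inside the GENCODE gene, whose 5′ end lies farther upstream at position 88509956. The window before the first of these 2 starts is shown. It is not the window before the 5′ end of the gene, and the FPKM values do not tell which start was used. Vim is read from the plus strand at chr2:13574061-13574310, Lmna from the minus strand at chr3:88503353-88503602 and Synm from the minus strand at chr7:67759743-67759992. The Vim window too lies inside the GENCODE gene, whose 5′ end is farther upstream at position 13573927. Capitals mark matches, on either strand, to the TATA box TATAAA, the CCAAT box CCAAT, the GC box GGGCGG and the AP-1 motif TGANTCA.
Vim: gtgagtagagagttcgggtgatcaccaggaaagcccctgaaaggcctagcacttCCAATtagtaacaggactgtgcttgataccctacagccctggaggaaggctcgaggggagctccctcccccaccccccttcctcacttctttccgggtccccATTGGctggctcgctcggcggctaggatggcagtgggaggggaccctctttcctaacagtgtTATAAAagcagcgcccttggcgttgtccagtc
Lmna: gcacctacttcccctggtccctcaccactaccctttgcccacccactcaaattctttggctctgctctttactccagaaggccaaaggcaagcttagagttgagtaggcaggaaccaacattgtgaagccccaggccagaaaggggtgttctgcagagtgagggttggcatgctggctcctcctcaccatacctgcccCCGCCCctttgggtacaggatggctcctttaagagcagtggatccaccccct
Synm: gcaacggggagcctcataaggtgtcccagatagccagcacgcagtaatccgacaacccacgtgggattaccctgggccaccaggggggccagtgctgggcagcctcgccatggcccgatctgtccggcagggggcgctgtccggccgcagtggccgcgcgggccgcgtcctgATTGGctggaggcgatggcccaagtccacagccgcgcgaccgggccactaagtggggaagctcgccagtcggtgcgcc
The Vim window held a TATAAA match from 32 to 27 bases before the start and CCAAT matches on both strands. The Lmna window shown held 1 GC box and no CCAAT match, while the window before its other start held a CCAAT match, and the Synm window held 1 CCAAT match. None of the 3 windows held the AP-1 motif, and no match in them overlapped another. Among 32817 RefSeq windows of the same length 12.4% held TATAAA, 33.8% CCAAT, 32.7% GGGCGG and 6.75% TGANTCA. A match describes letters only and is no evidence of binding.

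Vim (ENSMUSG00000026728.9, chr2:13573927-13582826, plus strand, GENCODE M21 on GRCm38) was the most abundant member in every library. It stood at 940.0 FPKM at 0 mmHg, 210.3 FPKM at -80 mmHg, 222 FPKM at -120 mmHg, 229 FPKM at -160 mmHg and 235 FPKM at -200 mmHg. All 4 pressure libraries lay far below the control and close to one another. The reads per library total were 0.224 times those of the control at -80 mmHg (interval 0.220 to 0.228) and 0.2502 times at -200 mmHg (0.246 to 0.254). Among all 55401 IDs Vim ranked 180 to 193 by FPKM under pressure and 50 in the control. The log2 difference lay between -2.15 and -1.99, or -2.31 to -2.13 after subtraction of the median of all genes, and 1.30% to 1.48% of measured genes had a difference as low. Fewer Vim-rich cells and less Vim RNA per cell cannot be told apart in bulk libraries, and the same holds for each gene below.

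Between pressures Vim was higher at each of the 3 steps towards -200 mmHg, as were 5.67% of all measured genes. Lmnb2 alone of the measured members was lower at each of these 3 steps, as were 6.19% of all genes. At each of the 4 steps that start from the control 0 members were higher, where 2.01% of all genes were. These patterns were picked out with the values in view. The reads at -200 mmHg were 1.12 times those at -80 mmHg (1.10 to 1.14). Vim made up 95% to 96.2% of the summed FPKM of 36 cytoplasmic filament genes under pressure and 99.1% in the control. The other 35 genes summed to 9.40 to 11.9 FPKM under pressure and 8.72 FPKM in the control, so the sum of all 36 followed Vim. The filament family orphan genes Iffo1 and Iffo2 were left out of the 36. Iffo1 stood at 8.27 to 10.6 FPKM under pressure and 4.498 FPKM in the control, and Iffo2 at 3.42 to 4.46 and 2.99 FPKM.

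**Figure D2:**
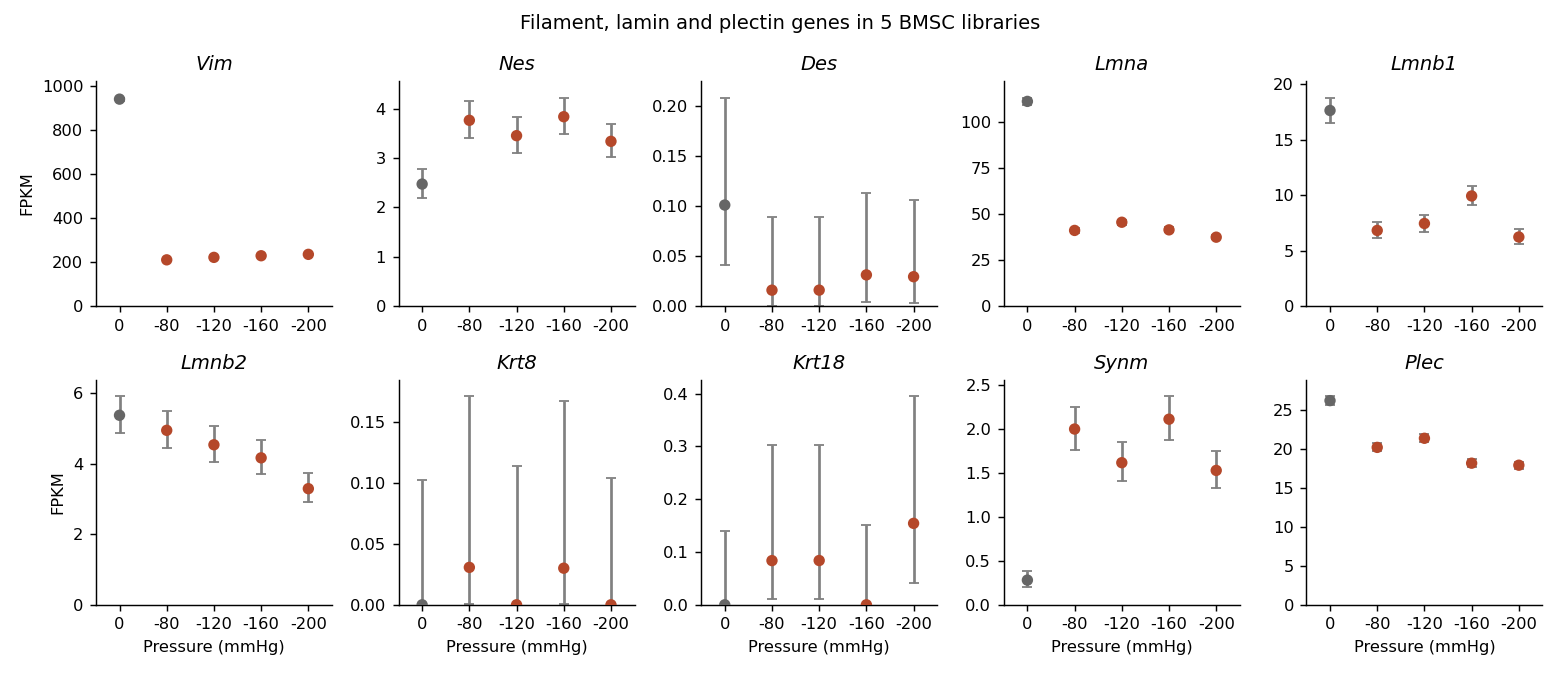
FPKM of each of the 10 genes (vertical axes start at 0 and differ) in the libraries at 0 mmHg (grey) and at -80 to -200 mmHg (red), with exact Poisson intervals at 95% for counting error. The control point lies above all 4 pressure points for Vim, Lmna, Lmnb1, Lmnb2, Plec and, on few reads, Des. It lies below them for Nes and Synm. The intervals of Des, Krt8 and Krt18 reach down to 0 or near it.

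Nes and Synm, whose products join vimentin filaments, stood higher under pressure than in the control, but from low levels. Nes (chr3:87971078-87980451, plus strand) stood at 2.47, 3.77, 3.46, 3.84 and 3.34 FPKM at 0, -80, -120, -160 and -200 mmHg. The pressure libraries all lay above the control, but the share of all genes separated in this way was not counted. The reads per library total were 1.35 to 1.55 times those of the control, with lower bounds of 1.16 to 1.33. The log2 difference of 0.32 to 0.48 was under the size rule, and 0.18 to 0.33 remained after subtraction of the median of all genes. Of measured genes 29.9% to 38.26% had a difference as high as that of Nes. Synm (chr7:67730160-67759742, minus strand) stood at 0.281 FPKM at 0 mmHg, 2.0 FPKM at -80 mmHg, 1.62 FPKM at -120 mmHg, 2.11 FPKM at -160 mmHg and 1.53 FPKM at -200 mmHg, from 213 to 285 reads under pressure and 41 reads in the control. The ratio to the control was 5.44 (3.89 to 7.80) at -200 mmHg and 7.52 (5.41 to 10.7) at -160 mmHg. On the log2(FPKM + 1) scale Synm was higher at -80, -120 and -160 mmHg and just short of the rule at -200 mmHg (0.98). With the trend of the difference with exon length removed its difference was 0.65 to 0.92, and with a pseudocount of 5 it was 0.31 to 0.43, so it then passed at no pressure. Synm shares 426 exon bases with Gm45102 and 84 with Ttc23 on the opposite strand, of 7933 in all, and the labels do not say whether counting used strand.

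Des, Krt8 and Krt18 were at or near the limit of detection. Des (chr1:75360329-75368579) had 1, 1, 2 and 2 reads at -80, -120, -160 and -200 mmHg and 7 reads in the control. Taken over the 4 pressure libraries its reads per library total were 0.231 times those of the control (0.0641 to 0.802). Krt8 (chr15:101996698-102004482) had 0 or 1 read in every library, and Krt18 (chr15:102028180-102032027) had 2, 2, 0 and 4 reads at the 4 pressures and 0 reads in the control. The floor set for a count of 0, 3 reads, is 0.0833 FPKM for Krt8 and 0.114 FPKM for Krt18 in the control. The upper bounds of their Poisson intervals there are 0.1024 and 0.1395 FPKM. A difference of these keratins was therefore not detectable at this depth.

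Markers of epithelium, muscle and other cell types were mostly low as well. Of 15 epithelial and mesothelial markers 2 were measured and 4 had 0 reads in all 5 libraries, among them Epcam and Cdh1. The list summed to 22.1 to 32.6 FPKM under pressure and 32.3 FPKM in the control, nearly all of it Msln (mesothelin), which stood at 19.1 to 29.2 FPKM under pressure and 30.4 FPKM in the control. Wt1, a transcription factor of mesothelium and kidney, was higher at all 4 pressures, at 2.03 to 2.24 FPKM under pressure against 0.263 FPKM in the control. Of 14 muscle markers 4 were measured, and the skeletal muscle regulators Myod1 and Myf5 had 0 reads in every library. That list summed to 381 to 419 FPKM under pressure and 370.0 FPKM in the control, most of it Acta2 (smooth muscle actin; 359 to 398 FPKM under pressure, 352 FPKM in the control). Smtn (smoothelin) stood at 11.6 to 14.2 FPKM under pressure and 15.2 FPKM in the control, and the 1 called marker was Cnn1 (calponin), at 5.81 to 7.67 FPKM under pressure and 1.73 FPKM in the control. Of 10 neural and glial markers, some of which share cells with nestin, 0 were measured, and they summed to 0.893 to 1.40 FPKM under pressure and 0.568 FPKM in the control. Of 11 endothelial and pericyte markers 2 were measured and summed levels were 4.34 to 5.27 FPKM under pressure and 1.39 FPKM in the control. Notch3, a receptor of mural cells, was higher at all 4 pressures (2.16 to 2.93 FPKM under pressure, 0.558 FPKM in the control). Of 10 leukocyte markers 1 was measured, the macrophage marker Cd68, which was higher at all 4 pressures (5.71 to 7.57 FPKM under pressure, 2.29 FPKM in the control). The list summed to 7.09 to 8.46 FPKM under pressure and 2.44 FPKM in the control. The defining marker Ptprc (CD45) was at most 0.00605 FPKM. Wt1, Cnn1, Notch3 and Cd68 were called higher at all 4 pressures, as were 6.49% of all genes. The part of these cell types in the filament values was not tested.

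Few other filament genes reached the mean of 1 FPKM. Of 32 further filament genes 4 were measured and 14 had 0 reads in all 5 libraries. Of the 4 measured, 0 were called at all 4 pressures, where 6.49% of all genes were higher and 4.46% lower. Their median difference was 0.01 to 0.21, against 0.14 to 0.16 for all genes. Krt10, an epidermal keratin, stood at 1.59 to 2.64 FPKM under pressure and 2.11 FPKM in the control, and Iffo2, a filament family orphan, at 3.42 to 4.46 FPKM under pressure and 2.99 FPKM in the control. Iffo1, named after its values were seen, passed the rule only at -80 mmHg, at 10.6 FPKM against 4.498 FPKM in the control.

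Plec (chr15:76170974-76232574, minus strand) stood below the control at every pressure, but within the size rule. It stood at 26.2 FPKM at 0 mmHg, 20.2 FPKM at -80 mmHg, 21.4 FPKM at -120 mmHg, 18.2 FPKM at -160 mmHg and 17.9 FPKM at -200 mmHg. The pressure libraries all lay below the control, with ratios between 0.684 (0.661 to 0.707) and 0.816 (0.7898 to 0.843). Its log2 difference of -0.52 to -0.28 became -0.66 to -0.42 after subtraction of the median of all genes and -0.98 to -0.68 with the length trend removed. Before these corrections 15.88% to 25.09% of measured genes had a difference as low. Plec shares 205 of 18113 exon bases with Parp10 on the same strand, which stood at 14.3 to 18.3 FPKM under pressure and 40.9 FPKM in the control. The FPKM ratio of Vim to Plec was 10.3 to 13.1 under pressure, against 35.8 in the control (35.1 to 36.6).

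Plakins and desmosomal linkers, which attach filaments to other structures, were mostly low: of 13 such genes 6 were measured. Of these, 5 passed the rule nowhere, against 78.1% of all genes, and 0 were called at every pressure, with a median of 0.34 to 0.42. With 6 genes these counts do not set the group apart from all genes. The spectraplakins Macf1 (5.44 to 6.64 FPKM under pressure, 4.19 FPKM in the control) and Dst (5.54 to 6.23 FPKM under pressure, 3.64 FPKM in the control), which bridge cytoskeletal systems, stood above the control in all 4 libraries. Pkp2 (plakophilin 2), named after its values were seen, was higher at -80 mmHg, at 3.39 FPKM against 1.17 FPKM in the control. Among 18 measured partners and regulators of filaments 13 passed the rule nowhere, 1 was higher and 1 lower at every pressure, and the median was 0.27 to 0.39. The shares of all genes were 78.1%, 6.49% and 4.46% in that order, so these counts too were near the background. Fblim1 (migfilin), which binds filamin at adhesions, was lower, at 3.82 to 4.69 FPKM under pressure against 15.7 FPKM in the control. Usp9x, a deubiquitinating enzyme, was higher, at 9.16 to 12.2 FPKM under pressure against 3.83 FPKM in the control. Flna (filamin A) stood at 118 to 147 FPKM under pressure and 102 FPKM in the control, and Ywhag, a 14-3-3 protein gene, at 56.4 to 62.8 FPKM under pressure and 50.01 FPKM in the control.

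Of the lamin genes Lmna was lower at all 4 pressures, Lmnb1 at 3 and Lmnb2 at none. Lmna (ENSMUSG00000028063.15, chr3:88480147-88509956, minus strand) stood at 111 FPKM at 0 mmHg, 41.2 FPKM at -80 mmHg, 45.6 FPKM at -120 mmHg, 41.5 FPKM at -160 mmHg and 37.5 FPKM at -200 mmHg. The pressure libraries were all below the control, with ratios from 0.337 (0.325 to 0.349) at -200 mmHg to 0.4098 (0.396 to 0.424) at -120 mmHg. Its log2 difference was -1.55 to -1.27, or -1.68 to -1.41 after subtraction of the median of all genes, and 2.62% to 4.03% of measured genes were as low. The table gives 1 value for the gene, so lamin A and lamin C cannot be told apart.

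Lmnb1 (chr18:56707813-56753424, plus strand) stood at 17.6 FPKM at 0 mmHg, 6.82 FPKM at -80 mmHg, 7.44 FPKM at -120 mmHg, 9.92 FPKM at -160 mmHg and 6.23 FPKM at -200 mmHg. It was lower than the control at -80, -120 and -200 mmHg, with log2 differences of -1.25, -1.14 and -1.37, and short of the rule at -160 mmHg (-0.77). With a pseudocount of 5 its differences were -1.01 to -0.60. Reads at -160 mmHg were 1.46 times those of the other 3 pressure libraries together (1.31 to 1.62), while the same ratio was 1.004 for Lmna (0.969 to 1.04) and 0.985 for Lmnb2 (0.862 to 1.12). Outside the lamins it was 1.235 for Synm (1.072 to 1.419), 1.092 for Nes (0.9741 to 1.222), 1.028 for Vim (1.011 to 1.045) and 0.919 for Plec (0.8918 to 0.9469).

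Lmnb2 (chr10:80901203-80918245, minus strand) was lower at every step of pressure, though never by the size rule. It stood at 5.38, 4.95, 4.54, 4.17 and 3.29 FPKM at 0, -80, -120, -160 and -200 mmHg, with 255 to 353 reads under pressure and 424 reads in the control. Neighbouring values overlapped in their counting intervals, except that the interval at -160 mmHg (3.71 to 4.67) met that at -200 mmHg (2.90 to 3.73) only at its edge. The ratio to the control was 0.921 (0.797 to 1.06) at -80 mmHg and 0.613 (0.523 to 0.718) at -200 mmHg, and the reads at -200 mmHg were 0.666 times those at -80 mmHg (0.564 to 0.784). In all 1.44% of measured genes were lower at every step by any size, and Lmnb2 was singled out after its values were seen.

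The makeup of the lamin transcripts differed accordingly. The 3 genes summed to 47.01 to 57.6 FPKM under pressure and 134 FPKM in the control. Lmna made up 74.6% to 79.8% of that sum under pressure and 82.9% in the control, and Lmnb2 7.01% to 9.35% under pressure and 4.004% in the control. The FPKM ratio of Lmna to Lmnb2 was 8.32, 10.05, 9.95 and 11.4 at -80, -120, -160 and -200 mmHg and 20.7 (18.8 to 22.9) in the control. The ratio of Lmna to Lmnb1 was 6.04 (5.40 to 6.77) at -80 mmHg, 6.13 (5.51 to 6.83) at -120 mmHg and 6.02 (5.38 to 6.75) at -200 mmHg, against 6.32 (5.92 to 6.75) in the control. Those intervals overlapped. At -160 mmHg the ratio was 4.18 (3.81 to 4.59), below the intervals of the other 4 libraries.

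**Figure D3:**
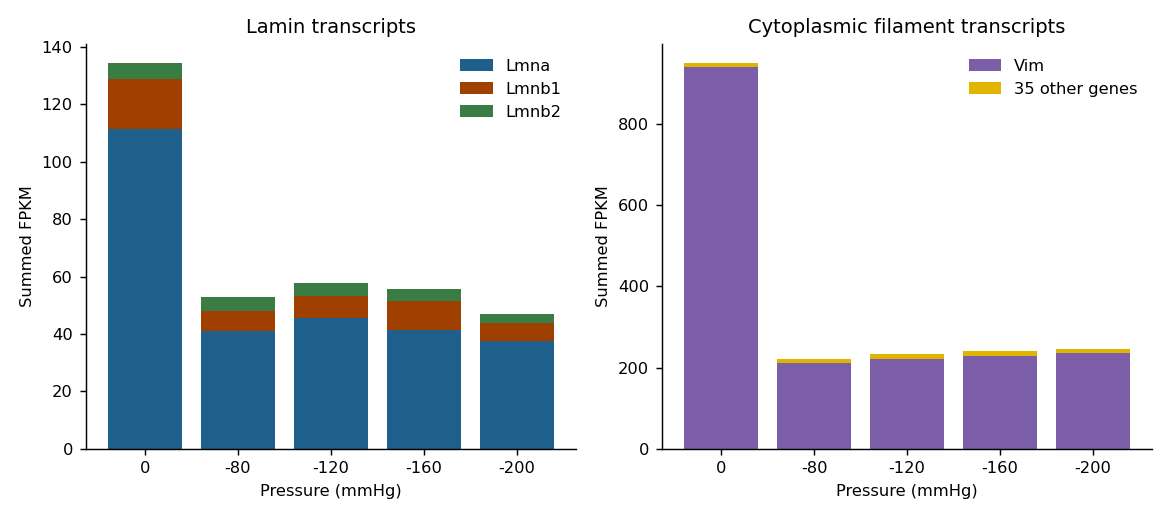
Summed FPKM of the lamin genes (left) and of 36 cytoplasmic filament genes (right) in each library, from 0 to -200 mmHg. Lamin transcripts sum to 47.01 to 57.6 FPKM under pressure and 134 FPKM in the control, and Vim is nearly all of the cytoplasmic sum in every library.

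Most cell cycle markers resembled Lmnb1 in the step from the control and in the -160 mmHg library, while their order among the other pressures varied. Of 16 such genes, all measured, 7 were lower at every pressure (4.46% of all genes), 0 higher (6.49%), and 3 passed the rule nowhere (78.1%). At -80, -120, -160 and -200 mmHg 13, 13, 7 and 11 were lower, where 6.89%, 6.45%, 6.03% and 6.38% of all genes were, with medians of -1.42, -1.44, -0.87 and -1.47. The mitotic genes Ccnb2 (9.78 to 15.05 FPKM under pressure, 56.3 FPKM in the control), Ccnb1 (4.15 to 7.15 FPKM under pressure, 22.2 FPKM in the control), Cdk1 (11.6 to 16.04 FPKM under pressure, 42.3 FPKM in the control) and Aurkb (3.07 to 4.73 FPKM under pressure, 15.1 FPKM in the control) were lower, as was the replication factor Cdc45 (1.82 to 3.84 FPKM under pressure, 13.3 FPKM in the control). The helicase subunits Mcm2 (6.09 to 8.07 FPKM under pressure, 12.01 FPKM in the control) and Mcm3 (14.9 to 23.4 FPKM under pressure, 23.2 FPKM in the control) passed the rule at no pressure. All 16 were highest at -160 mmHg among the pressures, as were Lmnb1, Nes and Synm of the 7 measured members and 25.4% of all genes. The ratio of -160 mmHg to the other 3 pressures ran from 1.21 to 1.89 over these markers, with a median of 1.51. The part of the cell cycle genes in the Lmnb1 values was not tested.

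**Figure D4:**
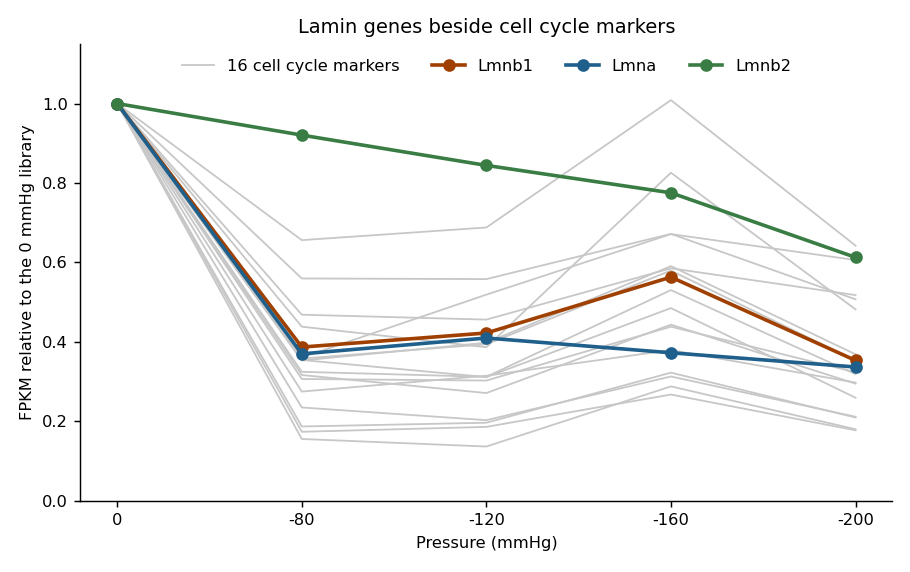
FPKM relative to the 0 mmHg library for Lmnb1, Lmna and Lmnb2 (coloured) and 16 cell cycle markers (grey lines) at each pressure. Lmnb1 and all 16 markers are highest at -160 mmHg among the pressures, Lmna is not, and Lmnb2 is lower at each step.

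Among partners of the lamina the counts were close to those of all genes. Of 20 nuclear envelope and LINC complex genes (the bridge between lamina and cytoskeleton) 18 were measured, 15 passed the rule nowhere (78.1% of all genes), 1 was higher at every pressure (6.49% of all genes) and 1 lower (4.46%), with a median of 0.17 to 0.25. Syne3, encoding nesprin-3, which binds plectin at the outer nuclear membrane, was lower, at 0.805 to 1.19 FPKM under pressure against 4.16 FPKM in the control. Lemd3 (MAN1), an inner membrane protein that binds SMAD proteins, was higher, at 4.95 to 5.79 FPKM under pressure against 1.96 FPKM in the control. Banf1, a chromatin protein that binds LEM-domain proteins, stood at 41.4 to 47.4 FPKM under pressure and 83.6 FPKM in the control, just under the rule at -80 mmHg, and Lemd2 at 30.8 to 35.5 FPKM under pressure and 20.9 FPKM in the control. Nrm (nurim), named after its values were seen, was lower at -80 and -120 mmHg (5.33 and 5.88 FPKM) against 14.05 FPKM in the control. Of 9 genes of lamin processing and turnover, all measured, 0 passed the rule at any pressure, where 78.1% of all genes did not, and the median was -0.12 to 0.15. Fnta, the shared subunit of the enzymes that prenylate lamins and other proteins, stood at 36.8 to 37.7 FPKM under pressure and 30.8 FPKM in the control, and the splicing factor gene Srsf1 at 31.6 to 36.4 FPKM under pressure and 28.2 FPKM in the control.

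**Figure D5:**
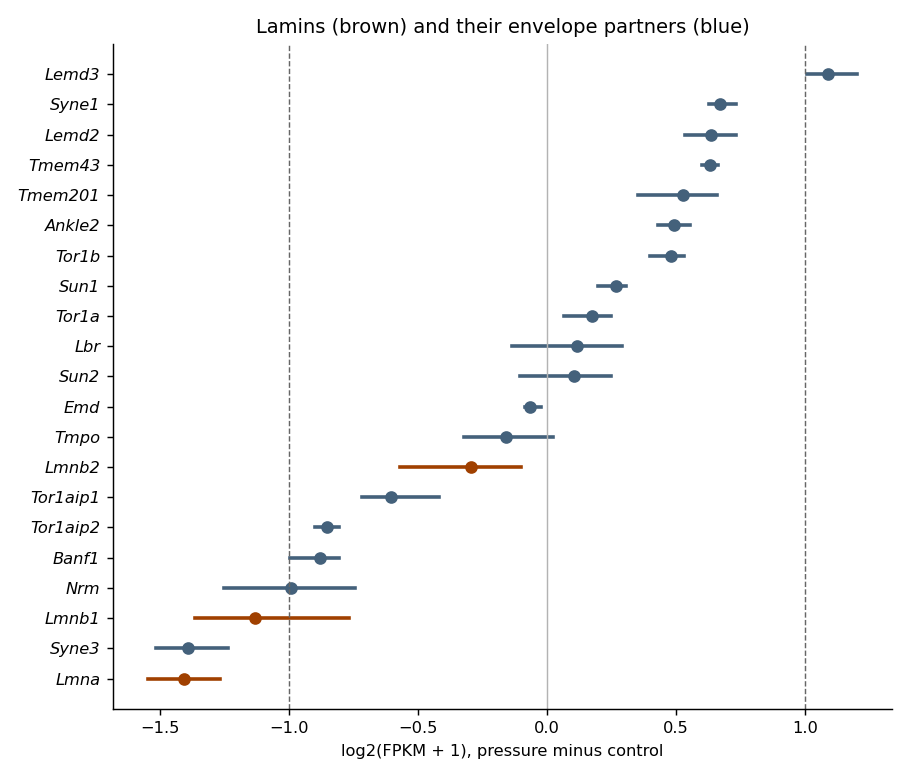
Difference in log2(FPKM + 1), pressure minus control, of the 3 lamin genes (brown) and 18 measured envelope and LINC genes (blue). Points are means over the 4 pressures, bars run from the lowest to the highest, and dashed lines are the size rule. Syne3 and Lmna lie wholly below -1, Lemd3 wholly above 1, and the bars of Lmnb1 and Nrm cross -1.

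The order of levels was nearly the same in every library. From high to low it ran Vim, Lmna, Plec, Lmnb1, Lmnb2, Nes and Synm, except that Nes (3.34 FPKM, interval 3.02 to 3.69) and Lmnb2 (3.29 FPKM, 2.90 to 3.73) overlapped and changed places at -200 mmHg. They also overlapped at -160 mmHg. Between neighbouring pressures 0 members passed the size rule, where 0.883% (-120 against -80 mmHg), 0.974% (-160 against -120 mmHg) and 0.900% (-200 against -160 mmHg) of all genes did, and 1.83% did so in at least 1 of these pairs. The largest such difference was that of Lmnb1, lower at -200 than at -160 mmHg by 0.596 on the log2 scale.

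Genes with a like profile were sought for Vim and Lmna, by the smallest Euclidean distance between centred log2(FPKM + 1) values over the 5 libraries among 7199 genes that have a proper symbol and average 5 FPKM or more. Nearest to Vim were Gng11, a G protein gamma subunit gene (8.83 to 10.4 FPKM under pressure, 42.3 FPKM in the control, distance 0.08), and the galectin genes Lgals9 (36.1 to 40.8 FPKM under pressure, 178 FPKM in the control, distance 0.09) and Lgals1 (978 to 1184 FPKM under pressure, 4271 FPKM in the control, distance 0.12). Nearest to Lmna were Uba7, the activating enzyme gene for the ubiquitin-like protein ISG15 (3.81 to 4.32 FPKM under pressure, 11.8 FPKM in the control, distance 0.12), the ADP-ribosyltransferase gene Parp10 (distance 0.12) and the torsin gene Tor3a (31.4 to 34.1 FPKM under pressure, 86.3 FPKM in the control, distance 0.14). With 5 libraries such closeness rests mainly on the step between the control and the pressure libraries.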

How the data were processed

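RNA-seq libraries of mouse BMSCs, 1 per condition, were compared. A single deposited table, made by the authors, holds FPKM for each gene ID in 1 column per library, with 0 columns of other samples. The tools named, per the submitters' processing notes, are featureCounts 1.5.0-p3, HISAT2 and SAMtools, and the build named there is rat (rn6). All IDs are mouse Ensembl IDs, so the mouse annotation GENCODE M21 (GRCm38) gave symbols and exon lengths, and 54349 of 55401 IDs matched with their version. In 98.8% of genes the product of FPKM and exon length came out as whole reads (to within 0.001 reads), from which the library totals follow. These reads served intervals, read numbers and 1 alternative. The floor for 0 reads was 3 reads per library.

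Conditions were compared by differences of log2(FPKM + 1) over 12113 genes averaging 1 FPKM or more, a scale that understates changes of low genes. With 1 library per condition there was no test. Members and lists were chosen with earlier results of these data known. From each list at most 5 genes past the size rule at all 4 pressures were named, by mean size, and at most 2 that passed it at none, by mean FPKM. Some other list genes, among them Pdgfra, Lepr and further stromal markers, were named outside these limits. For each member past the rule at all 4, the 3 nearest profiles were named. Alternatives were other pseudocounts, filters, scalings, a length correction, a 1.5-fold threshold and an exact binomial test of reads. Functions were tested on simulated reads. Software was scipy 1.17.1, pandas 2.3.3 and numpy 2.4.6 in Python 3.11.15, with matplotlib 3.10.9.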

Additional observations from a re-analysis of the deposited data

How the results depend on the processing

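No paired analysis was possible because each condition has 1 library. Vim and Lmna were lower at all 4 pressures under each alternative fixed with the design: pseudocounts of 0.1 and 5, no filter, a mean of at least 5 FPKM, the trimmed mean of log ratios, upper-quartile scaling, quantile normalization, the length trend removed, the 1.5-fold threshold, and the binomial test, which compares libraries and not conditions. At 1.5-fold Lmnb1 joined them (3 members). The count of members higher at all 4 pressures was 1 (Synm) with a pseudocount of 0.1 and at 1.5-fold, in place of 0. At 1.5-fold 1 member, Lmnb1, also passed between neighbouring pressures. When each pressure library was left out in turn, a choice made after the data were seen, 2 to 3 members were lower and 0 to 1 higher at all 3 others: Lmnb1 was added without -160 mmHg and Synm without -200 mmHg. The control cannot be left out. The size of the change depended on scaling for both Vim and Lmna. The log2 difference of Vim was -1.58 to -1.47 under quantile normalization and -2.37 to -2.18 with the length trend removed. That of Lmna was -1.38 to -1.13 and -1.75 to -1.48 in the same order. Counts over all genes at all 4 pressures were 540 lower and 786 higher; a pseudocount of 0.1 gave 670 and 1384, one of 5 gave 330 and 212, a mean of at least 5 FPKM gave 353 and 476, and the 1.5-fold threshold gave 1263 and 2151. The cause was not tested. No called difference of a member changed sign. Ratios of Krt8 to Krt18 were not computed, since both were at or near 0 reads. Depth limits Des, Krt8 and Krt18.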
